A study of Mus musculus with 78 samples.

Results

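The comparison described here is that of the partially ligated left carotid artery with the untouched right carotid artery of the same mouse, 12 h after surgery, in mice given atorvastatin. Its members are the 10 arrays whose titles carry the atorvastatin and 12 h labels, out of 78 arrays in all. They form 5 pairs, joined by the animal number in the title (mice 6 to 10), and each value below is the log2 level on an array or the LCA minus RCA difference within a mouse. LCA stands for the left common carotid artery, which was ligated, and RCA for the right common carotid artery, which served as the control.

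All mice of the series were operated on, so every group carries the ligation in the left artery and its own control in the right. Atorvastatin, a statin, was given by mouth each day at 10 mg/kg, starting 2 days before surgery. The set against which it is read is 5 further mice that received vehicle and were taken at the same time, and 5 atorvastatin-treated mice taken at 24 h. The labels used here name no strain, sex or age for the mice. RNA was flushed from the inner surface of each artery with Qiazol, so it is enriched for endothelium and not purified from other cells, and each array holds 1 artery.

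Partial ligation closes most of the branches that drain the left carotid, which leaves low and oscillating flow in the artery. Steady laminar flow is known to keep endothelial cells quiescent through the transcription factors Klf2 and Klf4, which support nitric oxide synthesis and restrain NF-kB, whereas disturbed flow is known to favour YAP/TAZ activity, inflammatory signalling and vasoconstrictor release. Statins block the mevalonate pathway, which makes cholesterol and isoprenoids, and they are known to raise KLF2 in cultured endothelial cells.

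Endothelial markers were high in both arteries. Of 14 endothelial markers with a probe set, 12 lay above the array median on all 10 arrays, and their mean level was 8.91 to 9.67 in the LCA and 9.08 to 9.63 in the RCA. Markers of other cells above the median on all 10 arrays were 8 of 10 for fibroblasts, 3 of 5 for lymphatic endothelium, 4 of 9 for smooth muscle, 4 of 12 for macrophages, 1 of 4 for adipocytes and 1 of 5 for Schwann cells. No skeletal muscle, T cell, B cell or thyroid marker was above the median on all 10 arrays. Correlations between pairs of these 10 arrays ran between 0.913 and 0.976. The difference between the 3′ and 5′ control probe sets of Gapdh, a sign of RNA integrity, averaged 4.87 ± 0.81 over the LCA arrays and 4.21 ± 0.21 over the RCA arrays (SD, n = 5 each). Mouse 8 stood apart, with 6.21 in its LCA and 3.99 in its RCA. Mouse 7 had high fibroblast, adipocyte and macrophage markers in its RCA, with median LCA minus RCA differences of -1.49, -1.52 and -1.54.

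At 12 h under atorvastatin, 191 of 11341 tested genes differed between the arteries (1.68%, limma on the within-mouse differences, adjusted p under 0.05). In the ligated artery 86 were higher (0.758%) and 105 lower (0.926%), and the median difference over all tested genes was 0.01. The median size of the called changes was 0.91 on the log2 scale, and 34 of the 86 rises and 46 of the 105 falls exceeded 1. All 5 mice moved the same way for 172 of the 191 genes, against 8.69% of all tested genes (4.59% higher in 5 of 5 mice and 4.1% lower). The LCA and RCA values did not overlap for 103 of them, against 2.08% of all tested genes (1.03% higher and 1.05% lower). In bulk RNA of this kind, fewer cells of a type and less RNA per cell cannot be told apart.

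The count depended on the mice and on the fit. A fit to the 5 mice alone, with no spread shared from other groups, called 12 genes, and the Gapdh probe set difference as a covariate gave 124. With that covariate, the falls of Arhgef16, Palmd, Jag1, Gnaq and Sema3f lost their calls. So did the rises of Angpt2, Sox4, Slc10a6, Dzank1, Mylip, Gpm6a, Bmp4, Wwtr1, Birc3, Cxcl1, Fosl2, Btg1, Sesn3 and Chac1. The count was 152 without mouse 6, 125 without mouse 7, 85 without mouse 8, 323 without mouse 9 and 102 without mouse 10. Without mice 7 and 8 together, a choice made after seeing the data, 28 genes were called, of which 25 were among the 191. Of the 62 called genes that the naming rule chose, 22 were called whichever mouse was left out, namely Klf2, Tcf23, Zbtb7c, Nrm, Cmklr1, Klk10, Nxnl2, Dll1, Mlph, Id1, Zbtb46, Kcnn4, Eln, Depp1, Gadd45a, Frzb, Ccn2, Edn1, Tnfaip3, Pdk4, Igf1r and Bcl2l11. Each of the others of the 62 lost its call without at least 1 mouse. Mouse 8 was the sole mouse whose omission ended the calls of Arhgef16, Cdo1, Icam2, Klf12, Klf3, Klk8, Mob2, Nos3, Pdgfb, Ptp4a3 and Smad1, mouse 7 that of Col6a3, and mouse 10 those of Abcg1, Pfkfb3 and Plscr2. Taking the most variable probe set, or the mean of all probe sets, ended the calls of Angpt2, Frzb, Sox4, Smad1, Zbtb46, Wwtr1, Fosl2, Spry4, Btg1, Pfkfb3 and Igf1r.

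**Figure D1:**
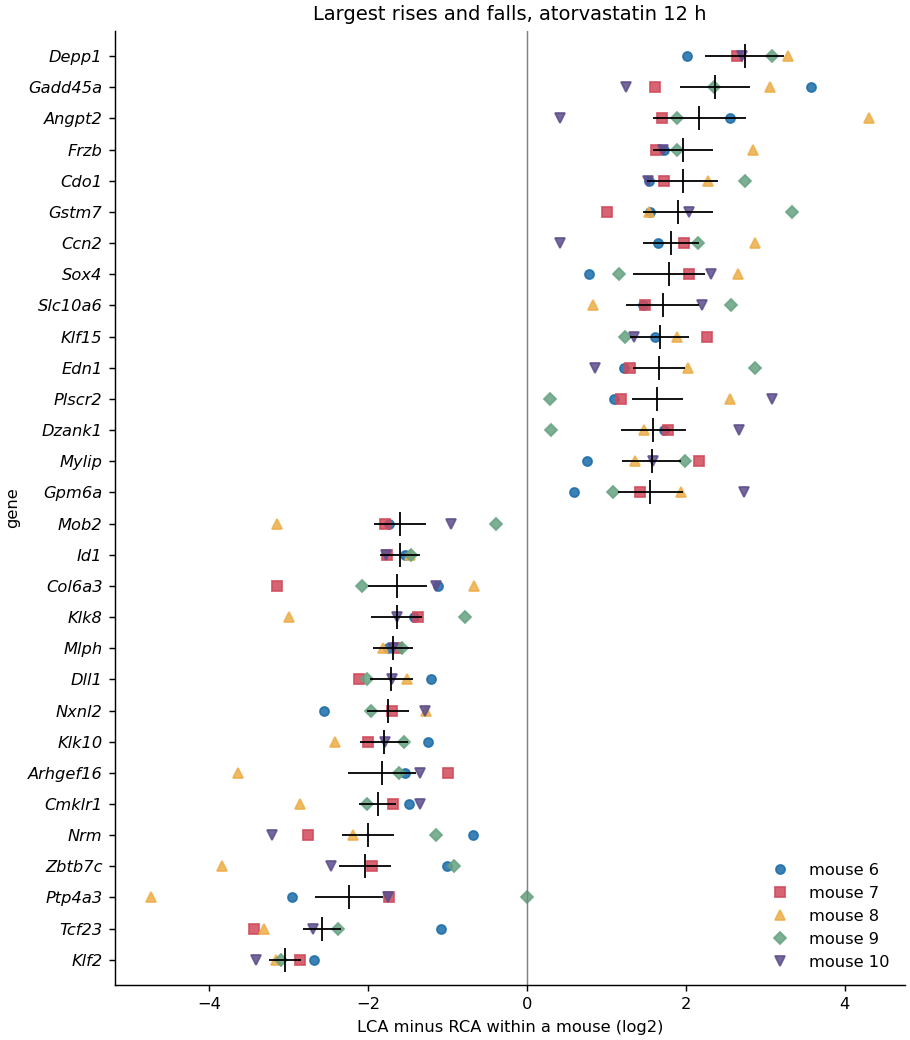
LCA minus RCA difference (log2, horizontal axis) of the 15 largest called rises and 15 largest called falls with 1 direction in all 5 mice. Coloured symbols are single mice, the black tick is the mean and the black line its SE from the fit. The 5 mice lay close together for Mlph and Id1, and mouse 8 lay farthest from the others for Ptp4a3, Zbtb7c and Arhgef16.

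Klf2, the flow-induced transcription factor, showed the largest fall. It lay at 7.25, 7.10, 7.16, 6.88 and 6.84 in the LCA of mice 6 to 10, against 9.93, 9.95, 10.31, 9.97 and 10.25 in the RCA of the same mice. The 2 arteries were far apart in every mouse and did not overlap. The difference was -3.04 (SE 0.20, adjusted p = 8.32e-13), which is 8.2-fold lower in the ligated artery.

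The promoter of Klf2 is shown because MEF2 factors are known to drive the gene, and the capitals mark a match to their motif, CTA and TAG with 4 bases of any kind between them (it reads the same on both strands). The 250 bases before the RefSeq start lie at chr8:72318812-72319061 of GRCm38.p6 on the plus strand, and the match ends 108 bases before the start.
Klf2: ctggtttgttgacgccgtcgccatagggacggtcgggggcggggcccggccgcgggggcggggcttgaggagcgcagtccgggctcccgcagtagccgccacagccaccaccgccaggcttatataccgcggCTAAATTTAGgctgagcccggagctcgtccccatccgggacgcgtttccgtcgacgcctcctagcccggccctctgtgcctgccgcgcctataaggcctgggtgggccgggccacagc
The motif occurred in 238 of 9146 tested genes with a promoter entry (2.6%). Among called genes with an entry it occurred in 1 of 70 rises (1.43%) and 5 of 73 falls (6.85%), and a match of letters is a description only.

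Of 11 Krüppel-like factors tested, 4 fell and 1 rose, with a list median of -0.34. Besides Klf2, the calls were Klf12 at -1.14 (SE 0.25, adjusted p = 0.00884; -0.75 without mouse 8), Klf3 at -0.82 (SE 0.16, adjusted p = 0.0032) and Klf10, the TGF-beta-inducible factor, at -0.78 (SE 0.21, adjusted p = 0.0424), for which no alternative was run. The riser was Klf15, a factor induced by glucocorticoids and fasting. Klf15 lay at 7.59, 7.30, 7.33, 7.53 and 6.46 in the LCA, against 5.98, 5.04, 5.44, 6.30 and 5.11 in the RCA, so the arteries did not overlap, and it differed by 1.67 (SE 0.37, adjusted p = 0.0102).

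Klf4, the close relative of Klf2, did not pass the threshold. It lay at 10.47, 10.34, 10.66, 10.28 and 9.73 in the LCA, against 11.38, 11.30, 11.64, 11.28 and 11.26 in the RCA. Every LCA was below every RCA, and the difference was -1.07 (SE 0.33, adjusted p = 0.0992). The SD of the difference over these 5 mice was 0.26, against 1.4 under atorvastatin and 1.21 under vehicle at 48 h. Those groups share in the spread behind the SE, and a fit to the 5 mice alone, without those groups, did not call Klf4 either. The part of the shared spread in the missed call was not tested. Among the settings tried, the choice of probe set alone changed the call. With the most variable probe set the difference was -1.67 (adjusted p = 0.000588), and with the mean of all its probe sets -1.37 (adjusted p = 0.00852).

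Among 14 effectors associated with laminar flow, 3 fell and none rose, and the list median was -0.29. Klk10, a secreted kallikrein-related peptidase with high expression under stable flow, lay at 9.38, 8.91, 8.53, 8.96 and 8.56 in the LCA, against 10.62, 10.91, 10.95, 10.52 and 10.34 in the RCA. The arteries did not overlap and the difference was -1.80 (SE 0.30, adjusted p = 0.000392). Nos3, the endothelial nitric oxide synthase, lay at 7.37, 7.66, 6.88, 6.98 and 7.46 in the LCA, against 8.31, 8.25, 8.70, 7.74 and 8.22 in the RCA. It was lower in all 5 mice by -0.97 (SE 0.19, adjusted p = 0.00254), most so in mouse 8. The third was Palmd, which encodes palmdelphin, at -0.57 (SE 0.15, adjusted p = 0.0338), and its arteries overlapped. Of 19 genes for nitric oxide synthesis, its cofactor and caveolae, Nos3 was the sole call, and their median was -0.09.

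**Figure D2:**
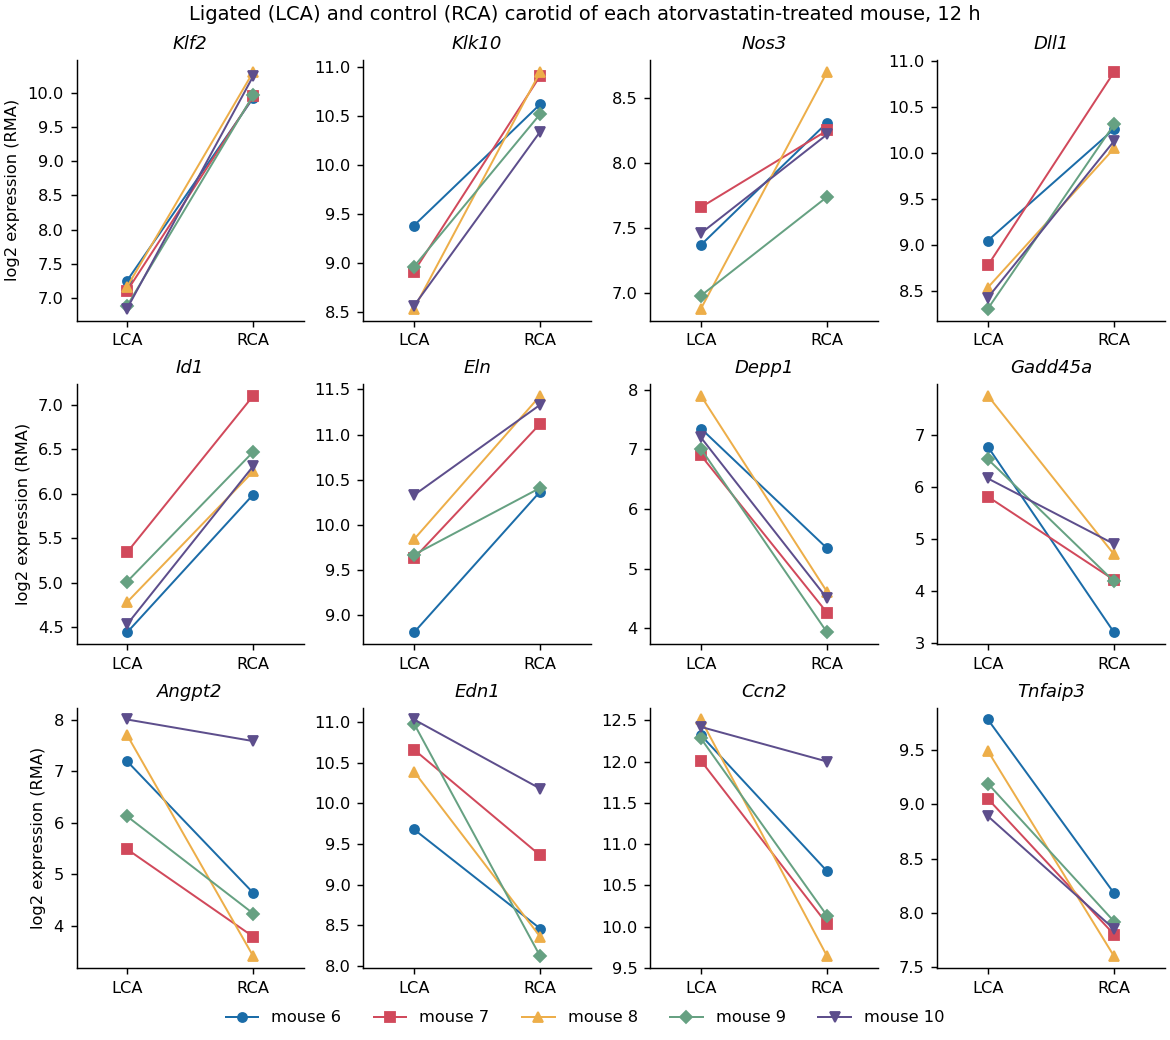
Log2 level (vertical axis, own scale in each panel) of 12 genes in the LCA (left) and RCA (right) of mice 6 to 10, with a line joining the arteries of a mouse. Klf2, Klk10, Nos3, Dll1, Id1 and Eln were lower in the LCA of every mouse, and Depp1, Gadd45a, Angpt2, Edn1, Ccn2 and Tnfaip3 were higher. Mouse 10 had high Angpt2 and Ccn2 in its RCA.

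A few genes that sense flow or carry its signals also fell. Of 12 mechanosensors and flow-regulated channels, 2 were lower and none higher, with a median of -0.27. In mice 6 to 10 the list median was -0.18, 0.01, -0.53, 0.14 and -0.16, so mouse 8 was lowest. Kcnn4, the calcium-activated potassium channel behind endothelial hyperpolarisation, lay at 10.16, 9.48, 9.57, 9.25 and 9.30 in the LCA, against 10.84, 10.73, 11.17, 11.18 and 10.96 in the RCA. No LCA reached any RCA, and the difference was -1.42 (SE 0.19, adjusted p = 1.94e-05). Gnaq, the Gq subunit, differed by -0.59 (SE 0.15, adjusted p = 0.0304) and its arteries overlapped.

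A pair of Notch ligands fell. Dll1 lay at 9.05, 8.78, 8.54, 8.31 and 8.43 in the LCA, against 10.26, 10.88, 10.05, 10.31 and 10.13 in the RCA. The arteries were separate in every mouse, with a difference of -1.71 (SE 0.27, adjusted p = 0.000205). Jag1 was lower in 4 of 5 mice, by -0.84 (SE 0.23, adjusted p = 0.0424), or by -0.52 without mouse 8, and its arteries overlapped. Of 15 Notch ligands, receptors and targets these were the 2 calls, and the median of the list was -0.19, or -0.02 without mouse 8.

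The BMP and ALK1 signalling list held 1 fall and 2 rises. Id1, the inhibitor of bHLH factors that BMP receptors induce, lay at 4.44, 5.34, 4.78, 5.01 and 4.53 in the LCA, against 5.99, 7.10, 6.25, 6.47 and 6.31 in the RCA. Every mouse was lower by a similar amount, -1.60 on average (SE 0.25, adjusted p = 0.000192). Bmp4, a ligand known to rise under disturbed flow, was higher by 0.54 (SE 0.14, adjusted p = 0.0327), and Smad1, the BMP signal transducer, by 0.62 (SE 0.14, adjusted p = 0.00939). The call of Bmp4 was lost when any of mice 7, 8, 9 or 10 was left out. The other probe set of Smad1, much dimmer, gave 0.12 (adjusted p = 0.911). These 3 were the calls among 15 genes of the list, whose median was 0.05. None of 16 TGF-beta ligands, receptors and latent binding proteins and none of 9 mesenchymal transition genes was called.

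Among 21 endothelial transcription factors 1 fell and 1 rose. Zbtb46, a zinc finger factor of quiescent endothelium and dendritic cells, lay at 7.43, 7.40, 7.93, 7.73 and 7.51 in the LCA, against 8.02, 8.45, 8.43, 8.86 and 8.54 in the RCA. It did not overlap and was lower by -0.86 (SE 0.15, adjusted p = 0.000951), or by -0.53 (adjusted p = 0.494) with its most variable probe set. Sox4 lay at 7.50, 6.82, 8.60, 7.32 and 7.93 in the LCA, against 6.72, 4.78, 5.94, 6.16 and 5.62 in the RCA, and was higher by 1.79 (SE 0.45, adjusted p = 0.0276), or by 0.99 (adjusted p = 0.0537) as the mean of its probe sets.

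Of 9 leukocyte adhesion molecules, 1 passed the threshold and it fell. Icam2, which is present on resting endothelium, lay at 7.40, 8.45, 6.88, 8.27 and 8.66 in the LCA, against 8.49, 9.54, 9.39, 8.65 and 9.45 in the RCA. All 5 mice were lower, by -1.17 on average (SE 0.23, adjusted p = 0.00318), although the arteries overlapped between mice. The inducible molecules were not called, with 0.42 for Vcam1 (SE 0.19, adjusted p = 0.379) and 0.31 for Icam1 (SE 0.13, adjusted p = 0.305).

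Further large falls came from genes of diverse function. Tcf23, a bHLH factor, lay at 5.36, 3.92, 4.22, 5.25 and 3.94 in the LCA, against 6.45, 7.35, 7.53, 7.62 and 6.63 in the RCA, a difference of -2.58 (SE 0.24, adjusted p = 7.85e-09). Cmklr1, the chemerin receptor, lay at 6.01, 5.55, 4.67, 5.41 and 6.01 in the LCA, against 7.50, 7.24, 7.52, 7.42 and 7.35 in the RCA, a difference of -1.88 (SE 0.23, adjusted p = 2.58e-06). Both genes were separate between the arteries, and the RCA values of Cmklr1 spanned less than its LCA values. Mlph, which encodes melanophilin, a linker of vesicles to myosin, lay at 5.89, 5.22, 5.44, 5.72 and 5.65 in the LCA, against 7.64, 6.86, 7.25, 7.28 and 7.33 in the RCA. Its 5 within-mouse differences lay between -1.81 and -1.57, with a mean of -1.69 (SE 0.25, adjusted p = 6.96e-05).

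The phosphatase gene Ptp4a3 fell by 2.24 on the log2 scale (SE 0.43, adjusted p = 0.00254), but mouse 9 had 5.79 in both arteries and mouse 8 had 3.86 in the LCA against 8.59 in the RCA. The SD of its difference over the 5 mice was 1.75. Zbtb7c fell by 2.04 (adjusted p = 0.000245) and Nrm, a protein of the inner nuclear membrane, by 2.00 (adjusted p = 0.000348). Arhgef16 fell by 1.82 (adjusted p = 0.0166), Nxnl2 by 1.75 (adjusted p = 0.000115), the kallikrein Klk8 by 1.64 (adjusted p = 0.00279) and Mob2, a regulator of NDR kinases, by 1.60 (adjusted p = 0.00503). The calls of Ptp4a3, Arhgef16, Klk8 and Mob2 were lost without mouse 8. Spry4, an inhibitor of receptor tyrosine kinase signalling, fell by 1.30 (SE 0.30, adjusted p = 0.0122) and was the 1 call among 13 ERK feedback genes. Sema3f, a semaphorin, fell by 0.79 (adjusted p = 0.044) and by 0.51 without mouse 8, the 1 call among 18 axon guidance genes. Plpp1, a lipid phosphate phosphatase, fell by 0.57 (adjusted p = 0.0115), the 1 call among 13 prostanoid and sphingosine phosphate genes.

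Extracellular matrix genes fell in part. Eln, which encodes elastin, lay at 8.81, 9.63, 9.84, 9.67 and 10.33 in the LCA, against 10.37, 11.12, 11.43, 10.41 and 11.33 in the RCA, and was lower by -1.28 (SE 0.21, adjusted p = 0.000388). Its highest LCA, in mouse 10, lay just under its lowest RCA, in mouse 6. Mfap5, a microfibril component, differed by -0.89 (SE 0.20, adjusted p = 0.013), and the 2 were the calls among 14 elastic fibre and lysyl oxidase genes. Col6a3, a chain of collagen VI, lay at 7.91, 5.45, 7.57, 6.43 and 7.20 in the LCA, against 9.02, 8.61, 8.24, 8.51 and 8.35 in the RCA, and was lower by -1.63 (SE 0.37, adjusted p = 0.0112). It was the sole call among 17 collagens and was lost without mouse 7. Over the 5 mice, 8 of 9 tested fibroblast markers had a negative mean difference, with a list median of -0.33. The list median was -0.38, -1.49, 0.20, 0.16 and -0.26 in mice 6 to 10, so mouse 7 was lowest and mice 8 and 9 were above 0. Eln was lower in the LCA of all 5 mice. Of 8 tested smooth muscle markers, 5 had a negative mean difference and 3 a positive one, between -1.21 and 0.38. The lowest was Myh11, with a mean level of 5.67 in the LCA against 6.88 in the RCA. Over all 10 fibroblast markers the mean level per array ran between 6.57 and 7.62 for LCA samples and between 7.06 and 8.30 for RCA samples. Eln kept its call without mouse 7, and Mfap5 lost it without mouse 7 and without mouse 8, and the part of other cells in these falls was not tested.

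The largest called rises were those of Depp1, of the FoxO and fasting list, and Gadd45a, of the growth arrest list. Depp1, a FoxO target linked to autophagy, lay at 7.35, 6.90, 7.90, 7.01 and 7.20 in the LCA, against 5.34, 4.26, 4.61, 3.93 and 4.50 in the RCA. The arteries were wide apart in every mouse, and the difference was 2.74 (SE 0.50, adjusted p = 0.00149), or 6.7-fold. Pdk4, the kinase that shuts off pyruvate dehydrogenase in fasting, lay at 10.62, 10.11, 10.38, 10.10 and 9.57 in the LCA, against 9.51, 8.98, 8.63, 9.35 and 7.56 in the RCA. It was higher by 1.35 (SE 0.24, adjusted p = 0.00128) with no overlap. Of 13 tested genes of the FoxO and fasting list, 4 rose and none fell, with a median of 0.41. The other 2 were Klf15 and Sesn3, a sestrin, at 0.91 (SE 0.25, adjusted p = 0.046). Sesn3 differed by 0.95, 0.60, 2.39, -0.37 and 0.94 in mice 6 to 10, so mouse 8 was highest and mouse 9 went the other way, and without mouse 8 the mean was 0.53 (adjusted p = 0.453).

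Gadd45a, the stress-induced growth arrest gene, lay at 6.78, 5.82, 7.76, 6.54 and 6.17 in the LCA, against 3.21, 4.22, 4.71, 4.19 and 4.91 in the RCA. No RCA reached any LCA, and the difference was 2.37 (SE 0.44, adjusted p = 0.00167). Btg1, an antiproliferative gene, was higher by 0.55 (SE 0.14, adjusted p = 0.0322), and its call was lost whichever mouse was left out. Gadd45a and Btg1 were the 2 calls among 14 growth arrest genes, whose median was 0.28. Bcl2l11, which encodes the cell death activator Bim, lay at 9.75, 10.27, 9.68, 10.12 and 9.27 in the LCA, against 9.14, 9.24, 8.88, 8.81 and 7.82 in the RCA. It was higher by 1.04 (SE 0.16, adjusted p = 0.00016) and was the 1 call among 13 apoptosis regulators. Igf1r, the receptor of insulin-like growth factor 1, was higher by 0.83 (SE 0.13, adjusted p = 0.000115), or by 0.62 (adjusted p = 0.185) with its most variable probe set. None of 22 cell cycle genes was called, and their median was -0.22, with the medians of single mice between -0.60 and 0.33.

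The promoter of Bcl2l11 is shown because FoxO factors are known to activate the gene. The 250 bases before the start lie at chr2:128125788-128126037 of GRCm38.p6 on the plus strand, and the capitals mark the FOXO motif GTAAACA, searched on both strands.
Bcl2l11: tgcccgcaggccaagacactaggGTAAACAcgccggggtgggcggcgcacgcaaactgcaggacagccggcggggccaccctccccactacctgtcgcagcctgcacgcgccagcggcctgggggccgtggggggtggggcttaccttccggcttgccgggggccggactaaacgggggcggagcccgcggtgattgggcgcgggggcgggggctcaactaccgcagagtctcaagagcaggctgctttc
The motif occurred in 194 of 9146 promoters (2.12%), in 2 of 70 rises (Bcl2l11 and Btg1) and in 1 of 73 falls (Mob2). Depp1, named above as a FoxO target, has a promoter entry and held no match.

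Genes that respond to glucocorticoids rose in part, with 3 of 16 tested higher and none lower, and a median of 0.30. Cdo1, cysteine dioxygenase, lay at 10.04, 9.98, 9.52, 10.57 and 9.89 in the LCA, against 8.49, 8.26, 7.23, 7.83 and 8.38 in the RCA, and was higher by 1.96 (SE 0.45, adjusted p = 0.0121). The lowest LCA was above the highest RCA. Slc10a6, a carrier of sulphated steroids, was higher by 1.71 (SE 0.46, adjusted p = 0.0463), and Cebpd, a C/EBP transcription factor, by 0.74 (SE 0.17, adjusted p = 0.0112). The call of Slc10a6 was lost whichever mouse was left out.

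Single members of the vasoactive and angiogenic lists rose. Edn1, the precursor of the vasoconstrictor endothelin-1, lay at 9.68, 10.66, 10.39, 10.98 and 11.03 in the LCA, against 8.46, 9.36, 8.36, 8.12 and 10.18 in the RCA. All 5 mice were higher, by 1.66 on average (SE 0.33, adjusted p = 0.00322), while the RCA of mouse 10 exceeded the LCA of mouse 6, and it was the 1 call among 4 genes of the endothelin system. Angpt2, the ligand that opposes Tie2 signalling and loosens vessels, lay at 7.20, 5.49, 7.71, 6.13 and 8.01 in the LCA, against 4.64, 3.79, 3.41, 4.24 and 7.59 in the RCA. Its difference of 2.17 (SE 0.59, adjusted p = 0.0459) varied widely, being 4.30 in mouse 8 and 0.42 in mouse 10. The call of Angpt2 was lost when any of mice 6, 7, 8 or 9 was left out. Its other probe set, of nearly the same brightness (mean level 5.21, against 5.56), gave 0.18. Angpt2 was the sole call among 15 angiopoietin, Tie and VEGF receptor genes, whose median was -0.12. Pdgfb, a ligand that recruits mural cells, was higher by 1.39 (SE 0.30, adjusted p = 0.00726), the 1 call among 10 sprouting and tip cell genes. The gap junction gene Gja4 was higher by 0.86 (SE 0.19, adjusted p = 0.00971), the 1 call among 4 vascular connexins.

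Among 12 genes of YAP/TAZ signalling and its targets, 2 rose and none fell, with a median of 0.27. In mice 6 to 10 the list median was -0.02, 0.14, 0.66, 0.17 and 0.02, so mouse 8 was highest. Ccn2, the matricellular growth factor used as a YAP reporter, lay at 12.32, 12.01, 12.51, 12.28 and 12.42 in the LCA, against 10.67, 10.03, 9.64, 10.13 and 12.00 in the RCA. The LCA values were nearly level while the RCA of mouse 10 was high, and the difference was 1.81 (SE 0.35, adjusted p = 0.00279). Wwtr1, which encodes TAZ itself, was higher by 0.39 (SE 0.10, adjusted p = 0.0458) and lost its call under most settings tried.

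NF-kB genes had a few rises. Tnfaip3, which encodes A20, the feedback inhibitor that NF-kB induces, lay at 9.78, 9.05, 9.49, 9.19 and 8.89 in the LCA, against 8.18, 7.80, 7.60, 7.92 and 7.85 in the RCA. The arteries did not overlap and the difference was 1.41 (SE 0.22, adjusted p = 0.000205). Birc3, an inhibitor of apoptosis that NF-kB also induces, was higher by 0.78 (SE 0.21, adjusted p = 0.0424), and these 2 were the calls among 16 genes, with a median of 0.24. Of 11 CXCL chemokines and receptors, Cxcl1, a neutrophil attractant, was the sole call. Cxcl1 lay at 9.10, 9.06, 8.86, 9.12 and 9.09 in the LCA, against 8.86, 7.30, 7.78, 8.49 and 8.12 in the RCA, level among the ligated arteries and scattered among the controls. The difference was 0.94 (SE 0.25, adjusted p = 0.0374). None of 11 CCL chemokines and receptors and none of 13 interleukin-1, interleukin-6 and TNF genes was called.

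The promoters of Tnfaip3 and Cxcl1 are shown because both genes rose and are known NF-kB targets, and the capitals mark the NF-kB motif, GGG and TTTCC with 2 bases of any kind between them, or its reverse, GGAAA and CCC with 2 bases between them. The 250 bases before each start lie at chr10:19015411-19015660 on the minus strand for Tnfaip3 and at chr5:90890995-90891244 on the plus strand for Cxcl1 (GRCm38.p6).
Tnfaip3: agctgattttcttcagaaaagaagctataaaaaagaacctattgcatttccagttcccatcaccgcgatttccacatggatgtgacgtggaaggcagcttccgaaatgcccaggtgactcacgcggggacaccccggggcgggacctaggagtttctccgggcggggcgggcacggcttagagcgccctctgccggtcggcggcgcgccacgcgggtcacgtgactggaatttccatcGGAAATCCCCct
Cxcl1: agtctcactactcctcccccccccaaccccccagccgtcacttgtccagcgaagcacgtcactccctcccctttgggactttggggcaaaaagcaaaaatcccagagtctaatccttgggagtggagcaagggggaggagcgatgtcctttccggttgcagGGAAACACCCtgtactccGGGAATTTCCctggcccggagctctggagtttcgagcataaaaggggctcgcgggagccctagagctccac
Tnfaip3 held 1 match and Cxcl1 held 2. The motif occurred in 126 of 9146 promoters (1.38%), in these 2 of 70 rises and in 0 of 73 falls.

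Immediate early genes varied by mouse. Of 17 AP-1 and EGR genes, Fosl2, an AP-1 subunit, was the sole call, at 0.94 (SE 0.24, adjusted p = 0.0267). The list median was 1.93 in mouse 8, against -0.33 to 0.18 in the other mice. Mouse 8 was also the mouse with the widest gap between its arteries in the Gapdh probe sets, 2.23 against -0.07 to 0.67. With that gap as a covariate the call of Fosl2 was lost. The part of RNA quality in the high list median of mouse 8 was not tested.

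No tested gene of cholesterol synthesis, the pathway that statins block, passed the threshold. Both arteries of a mouse were exposed to the drug, so a response shared by both cancels in this difference. The count therefore does not bear on the action of the drug. Of 16 cholesterol synthesis and uptake genes, 0 were called, with a median of -0.03 and single genes between -0.22 and 0.50. Insig1, the sterol-regulated retention protein, differed by 0.50 (SE 0.16, adjusted p = 0.137) and Sqle, squalene epoxidase, by -0.13 (SE 0.29, adjusted p = 0.933). Sqle was dim, at 2.88 to 4.34 in the LCA and 3.08 to 4.82 in the RCA, where the array medians were 4.59 to 4.68. Of 9 genes of cholesterol efflux and LXR action, 2 rose. Mylip, the ubiquitin ligase that LXR induces and that degrades lipoprotein receptors, lay at 9.54, 9.67, 9.50, 9.56 and 8.93 in the LCA, against 8.78, 7.51, 8.14, 7.57 and 7.33 in the RCA, and was higher by 1.57 (SE 0.37, adjusted p = 0.0167). Abcg1, a sterol transporter, was higher by 0.87 (SE 0.19, adjusted p = 0.00738), and every mouse was higher for both genes.

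Other metabolic and stress lists held single calls or none. Pfkfb3, an activator of glycolysis, was higher by 0.91 (SE 0.19, adjusted p = 0.00592), or by 0.48 (adjusted p = 0.553) with its most variable probe set, and was the 1 call among 16 glycolysis and hypoxia genes, and 0 of 17 respiratory chain genes were called. Chac1, an ATF4 target that degrades glutathione, was higher by 1.53 (SE 0.36, adjusted p = 0.0149), the 1 call among 17 ATF4 targets, and its call was lost without mouse 6 or without mouse 8. The SD of its difference over the 5 mice was 1.5. None of 18 endoplasmic reticulum chaperones, 9 heat shock proteins, 16 NRF2 and antioxidant genes, 14 interferon-stimulated genes, 15 circadian clock genes or 12 coagulation genes was called. Frzb, a secreted Wnt antagonist, lay at 7.91, 7.14, 7.49, 7.59 and 7.89 in the LCA, against 6.19, 5.52, 4.64, 5.70 and 6.18 in the RCA. It was higher in all 5 mice, by 1.96 (SE 0.38, adjusted p = 0.00254), or by 1.16 (adjusted p = 0.188) with its other probe set, and was the 1 call among 15 Wnt signalling genes. The remaining large rises were Gstm7, a glutathione transferase, at 1.90 (adjusted p = 0.0138), Plscr2, a phospholipid scramblase, at 1.64 (adjusted p = 0.00279), Dzank1 at 1.59 (adjusted p = 0.0324) and Gpm6a, a membrane glycoprotein, at 1.55 (adjusted p = 0.0398).

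**Figure D3:**
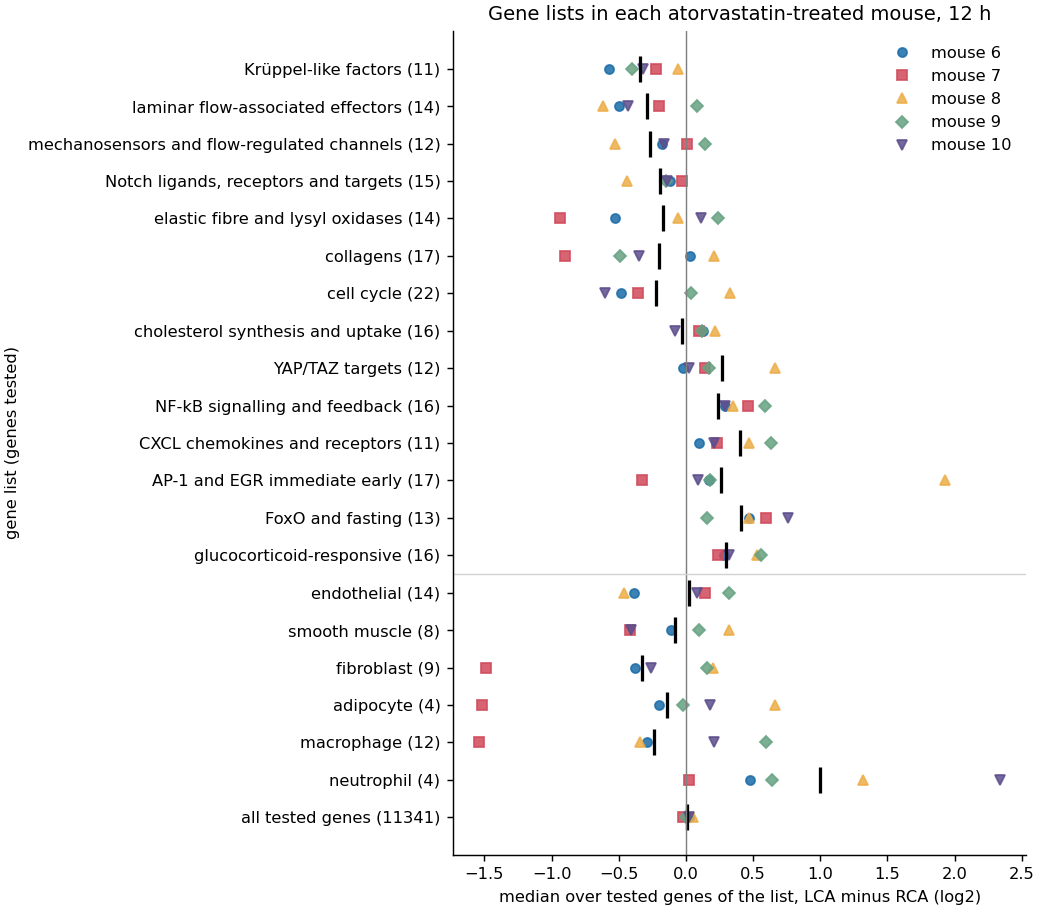
Median LCA minus RCA difference (log2, horizontal axis) over the tested genes of 14 pathway lists (above the grey line) and 6 cell type lists and all tested genes (below it), with the number of genes in brackets. Coloured symbols are single mice and the black tick is the median of the genes' mean differences, which need not lie among the medians of the mice. Mouse 7 lay at -1.49, -1.52 and -1.54 for the fibroblast, adipocyte and macrophage lists, and mouse 8 at 1.93 for the immediate early genes.

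Among the tested markers of cells other than endothelium, Mfap5 of the fibroblast list was the sole call. All 4 tested neutrophil markers had a positive mean difference, between 0.40 and 1.60, and none passed the threshold. Most were dim: of the 10 arrays, S100a9 lay above the array median on 6, S100a8 on 3, Csf3r on 1 and Cxcr2 on 0. Over the 6 neutrophil markers with a probe set, the mean level was 3.52 to 5.54 in the LCA and 3.45 to 3.95 in the RCA, and 3 of them lay below the array median on all 10 arrays. The median of the 4 was 0.48, 0.02, 1.32, 0.64 and 2.34 in mice 6 to 10, so that mice 8 and 10 were highest and mouse 7 lowest. Macrophage markers had a median of -0.24 and smooth muscle markers of -0.08, with 0 calls in each. The part of these cells in the rises was not tested.

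The same comparison in vehicle-treated mice called 271 genes (2.39%), 149 higher (1.31%) and 122 lower (1.08%) in the ligated artery. That balance turned with the scaling, to 91 higher and 166 lower with arrays centred on the median of tested genes and to 112 higher and 138 lower with quantile normalization. Of the 191 genes called under atorvastatin, 190 had the same sign under vehicle and 116 were called there too, which is 60.7% of the atorvastatin calls and 42.8% of the vehicle calls. The median over all tested genes under vehicle was 0.03. Across all tested genes the differences under the 2 treatments, from separate mice, correlated at 0.57 (Pearson) and 0.43 (Spearman), a description over genes, which are not independent. Klf2 differed by -3.04 (SE 0.20) under atorvastatin and -2.39 (SE 0.20) under vehicle, Nos3 by -0.97 and -0.65, and Angpt2 by 2.17 and 3.15.

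**Figure D4:**
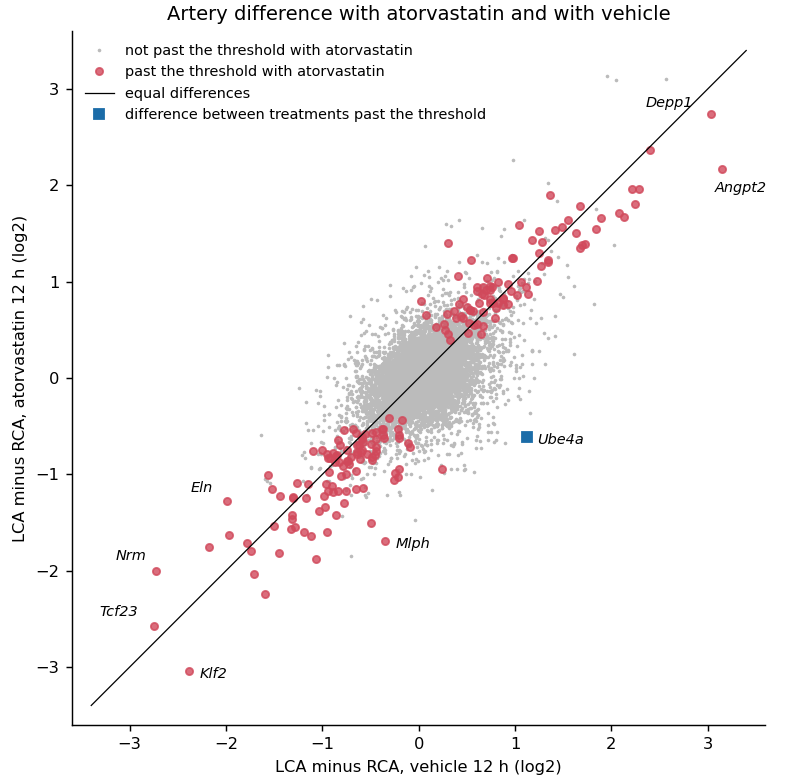
LCA minus RCA difference (log2) of each tested gene at 12 h with atorvastatin (vertical axis) and with vehicle (horizontal axis), 5 mice each. Red points are the 191 genes past the threshold with atorvastatin, the line marks equal differences and the blue square is Ube4a, the 1 gene whose difference between treatments passed the threshold. The red points, chosen by their value under atorvastatin, fall on both sides of the line, with 35 of the 86 rises and 26 of the 105 falls larger in size under vehicle. All but 1 have the same sign under both treatments.

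Tested directly, the artery difference under atorvastatin minus that under vehicle passed the threshold for 1 of 11341 genes (0.00882%), while 416 had an unadjusted p under 0.05. The gene was Ube4a, a ubiquitin chain assembly factor. Its LCA minus RCA differences were -0.80, -0.35, -1.48, -0.40 and -0.01 in atorvastatin-treated mice, against 0.28, 1.21, 0.48, 2.10 and 1.54 in vehicle-treated mice. All 5 atorvastatin-treated mice were negative and all 5 vehicle-treated mice positive, and the difference of differences was -1.73 (SE 0.30, adjusted p = 0.0159). Both arteries differed in level between the treatments. Control arteries averaged 5.57 (SD 0.66) with vehicle, below the 6.7 (SD 0.12) with atorvastatin. Ligated arteries averaged 6.69 (SD 0.61) with vehicle, above the 6.09 (SD 0.51) with atorvastatin. The vehicle difference of 1.12 at 12 h was followed by 0.02, -0.25 and -0.17 at 24 h, 48 h and 2 weeks. The part of each artery in the contrast of Ube4a was not tested. Under atorvastatin its other 2 probe sets differed from the -0.61 of the one used: that of nearly the same brightness (mean level 6.23, against 6.68) gave -0.05 with 2 of 5 mice higher, and a dim one (3.42) gave 0.42 with 4 of 5 mice higher. The call was lost without atorvastatin mouse 6 or 8 or vehicle mouse 2, 4 or 5. For Klf2 the difference of differences was -0.65 (SE 0.28, adjusted p = 1). For Mlph, with -1.81 to -1.57 under atorvastatin and -0.66 to 0.10 under vehicle, it was -1.34 (SE 0.35, adjusted p = 0.824).

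At 24 h under atorvastatin 1485 genes were called (13.1%), 827 higher (7.29%) and 658 lower (5.8%) in the ligated artery. With centred arrays the split was 638 higher and 765 lower, and with the most variable probe set 638 higher and 697 lower, so the balance turned round. Of the 86 genes higher at 12 h, 85 had the same sign at 24 h and 72 were called there. Of the 105 genes lower at 12 h, 102 had the same sign at 24 h and 89 were called. The median over all tested genes at 24 h was 0.02. The test of the difference itself, 24 h minus 12 h, called 0 genes (0%, limma), with 756 at an unadjusted p under 0.05. The lowest adjusted p among the named genes was that of Nrm (0.157), which differed by -2.00 at 12 h and -4.05 at 24 h.

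At later times the falls at 12 h stayed on the same side more often than the rises, as a count without a test. Of the 105 falls, 101 had a negative mean difference at 48 h and 97 at 2 weeks. Of the 86 rises, 54 had a positive one at 48 h and 59 at 2 weeks. The median over all tested genes was -0.01 at 48 h and -0.03 at 2 weeks. The LCA arrays were less alike at 48 h, with mean correlations within the group of 0.877 to 0.915, against 0.934 to 0.958 at 12 h. Klk10 differed by -1.80, -2.97, -4.48 and -6.14 at 12 h, 24 h, 48 h and 2 weeks under atorvastatin. Ccn2 differed by 1.81, 1.82, 3.81 and 2.78 at the same times. Klf15 differed by 1.67 and 2.38 at 12 h and 24 h, and by -0.04 and -0.38 at 48 h and 2 weeks. Its 48 h mean covers -0.08, 2.26, -1.24 and -1.09 in mice 6 to 9, so mouse 7 alone was above 0. Mylip differed by 1.57 and 1.86 at 12 h and 24 h, and by -0.93 and -0.97 at 48 h and 2 weeks. At 48 h the mice had -2.30, 1.52, -0.69 and -2.25, with mouse 7 again the sole one above 0. The matrix genes crossed the other way by 2 weeks, with 1.16 for Eln and 2.19 for Col6a3, against -1.28 and -1.63 at 12 h.

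**Figure D5:**
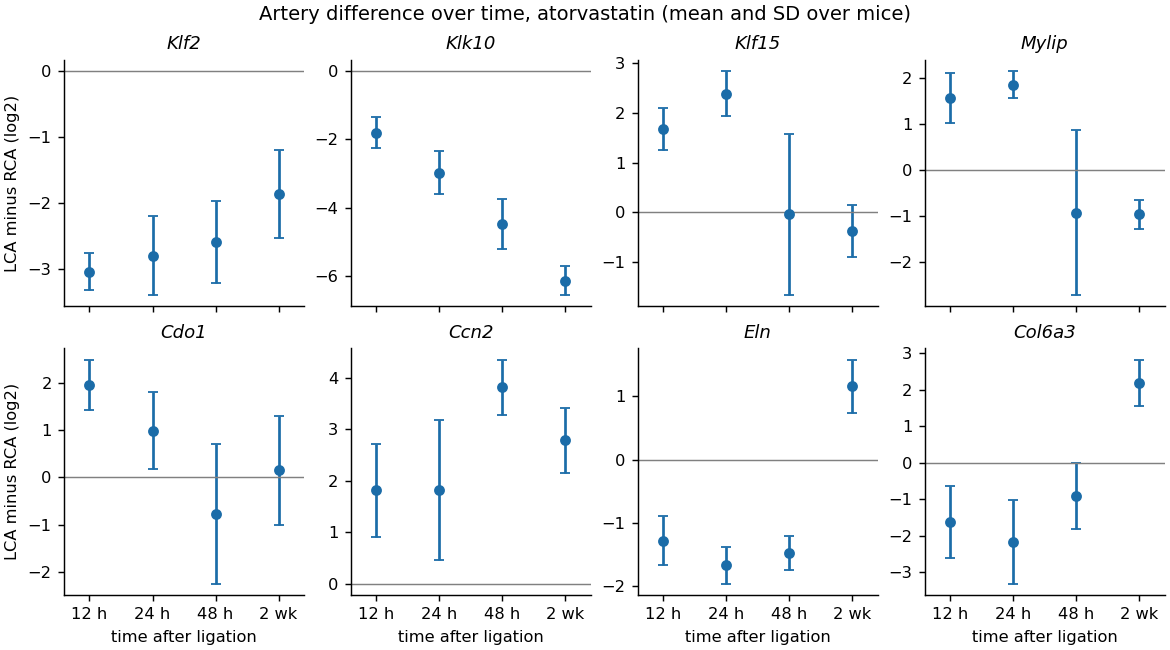
Mean LCA minus RCA difference (log2, vertical axis, own scale in each panel) of 8 genes in atorvastatin-treated mice at 12 h, 24 h, 48 h and 2 weeks after ligation, with the SD over 5, 5, 4 and 5 mice. Klk10 lay farther below 0 at each later time, the means of Klf15 and Mylip were above 0 at 12 h and 24 h alone, with wide SDs at 48 h, and those of Eln and Col6a3 were above 0 at 2 weeks alone.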

How the data were processed

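RNA of 78 arteries (39 mice, 8 mouse groups) was measured on Affymetrix mouse arrays. The authors deposited log2 values, which the submitters' processing notes credit to RMA, with no version. RMA forces 1 distribution on all arrays, which hides a shift shared by most genes and shrinks differences at low signal. The number of arrays limits the precision. The labels mention 4 extraction and profiling batches without assigning samples, so batch entered no fit and its part in any difference between mice was not tested.

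Of 45118 probe sets, the platform annotation named 1 gene for 28898, several for 551 and none for 15588, and 81 were controls. Each of 17097 genes was represented by its probe set with the highest mean, and 11341 genes above the array median on at least 4 arrays were tested. limma 3.58.1 (R 4.3.3, statmod 1.5.0) was fitted to the LCA minus RCA differences of 39 mice in 8 groups with a shared spread (31 residual degrees of freedom), with Benjamini-Hochberg adjustment over all tested genes and a threshold of 0.05. Same-mouse arteries pair by the animal number. The deviations of the 5 LCA and RCA arrays correlated at 0.25, 0.17, -0.15, -0.34 and 0.47 in mice 6 to 10. The best correlation of each LCA with the RCA of another mouse was 0.51, 0.32, 0.28, 0.31 and 0.19. The own RCA was thus the closest for mouse 10 alone. Mice are separate animals.

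The rule for naming took the 15 largest rises and 15 largest falls with an adjusted p under the threshold and 1 direction in all mice, up to 4 called members of each of 66 gene lists, and a fixed set of flow and sterol genes, of which some are not reported here. Predicted genes were not named. Klf10 was the fifth call of its list and was named after its values were seen. The comparison, the lists and the genes were chosen with earlier results of these data known, and lists are described by counts and medians with no test. Promoters are those of RefSeq (GRCm38.p6), 250 bases before the start, and each promoter shown holds its motif. A TEAD motif, GGAATG, was also searched. It occurred in 991 of 9146 promoters (10.8%), in 13 of 70 rises (18.6%) and in 10 of 73 falls (13.7%), as a description only.

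Alternatives changed the probe set choice, filter, normalization, fit, covariates and mice. On simulated data over 11341 genes for this comparison, with 200 changed genes in each of 5 runs, the fit called 26% of changes of log2 0.5, 76.1% of log2 1 and 97.6% of log2 2, and 0.0646% of unchanged genes. The simulated mice were independent and normal, and each gene had the same spread in all 8 groups. In the data the spread could differ between groups, as for Klf4, with an SD of 0.26 at 12 h and 1.4 at 48 h under atorvastatin. These rates therefore hold for equal spread and cannot show how the fit does where spreads differ. 1 gene list is not reported here.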

Additional observations from a re-analysis of the deposited data

Results flagged for a closer look

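In 7 of 70 sets of 5 values examined, 1 mouse lay far from the other 4, and chance alone marks about 1 in 20 independent sets. The sets were the within-mouse differences of 68 named genes and the Gapdh probe set differences of the LCA and of the RCA arrays. All 7 were sets of genes, which share the same 5 mice, so the sets are not independent. Mouse 8 stood apart for 4 genes. Its LCA minus RCA difference was 2.85 for Frzb, against 1.62 to 1.89 in the other mice. For Arhgef16 it was -3.64, against -1.61 to -0.99, and for Nos3 -1.82, against -0.93 to -0.59. For Spry4 it was -0.02, against -1.92 to -1.43. Mouse 9 stood apart for Bmp4 at 1.08, against 0.30 to 0.52, and for Insig1 at 0.02, against 0.50 to 0.67. Mouse 10 stood apart for Klf4 at -1.53, against -1 to -0.91. The difference between treatments in the artery difference of Ube4a, -1.73, passed the threshold of its own test, and its other 2 probe sets gave -0.05 and 0.42 under atorvastatin, against -0.61 for the one used.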

How the results depend on the processing

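The count of 191 genes for atorvastatin at 12 h was 155 without the pairing (no replicate block), 12 in a fit to the 5 mice alone, 124 with the Gapdh probe set difference as a covariate and 28 without mice 7 and 8 together, a choice made after seeing the data. Leaving out 1 mouse gave 85 to 323. With array centring the split was 66 higher and 116 lower, which leaves the falls in the majority. The count of 1 for atorvastatin minus vehicle was 0 in a fit to the compared mice alone, with the most variable or the mean probe set, with the Gapdh covariate, and without mice 7 and 8 together, and leaving out 1 mouse gave 0 to 1. The count of 0 for 24 h minus 12 h was 1 without the replicate block, 5 with the Gapdh covariate and 2 without mice 7 and 8, and leaving out 1 mouse gave 0 to 1. The vehicle count of 271 was 72 in a fit to its mice alone and 147 to 195 with 1 mouse left out, beyond 1.5 times without mouse 1, 2, 3 or 5. The 24 h count of 1485 was 824 to 1222 with 1 mouse left out, beyond 1.5 times without mouse 8 or 10. Sqle lay between -0.34 and 0.02 with 1 mouse left out, above 0 without mouse 9. With the most variable probe set, Ube4a turned to 0.42 under atorvastatin and to 0.70 for the difference between treatments. Over pairs of a named gene and a setting, 881 kept direction and side of the threshold, 287 lost the call, 2 gained it (both Klf4) and 3 reversed. Klf2, Dll1, Mlph and Id1 were called under every alternative run for them. The other alternatives left these counts within 1.5 times. The causes were not tested.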

Other observations

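Some called genes outside the lists belong to families or share a neighbourhood, and they were chosen after their values were seen, with no alternative run for them. Klk7, on chromosome 7 like Klk8 and Klk10, was the third kallikrein to fall. It lay at 4.42, 4.64, 4.10, 4.82 and 4.76 in the LCA, against 5.03, 5.25, 4.90, 5.54 and 5.64 in the RCA, with no overlap and a difference of -0.72 (SE 0.17, adjusted p = 0.0182). Birc2, on chromosome 9 like Birc3, was higher by 0.70 (SE 0.17, adjusted p = 0.0174). Dhh, the desert hedgehog ligand of endothelium and Schwann cells, lay at 8.58, 9.23, 8.05, 9.08 and 9.65 in the LCA, against 10.27, 11.01, 10.49, 9.57 and 11.10 in the RCA. It was lower in all 5 mice by -1.57 (SE 0.24, adjusted p = 0.000165).

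Further called genes, chosen after their values were seen, had diverse functions. Fgfr3, a fibroblast growth factor receptor, lay at 7.84, 7.53, 7.78, 6.99 and 7.51 in the LCA, against 8.78, 8.97, 8.97, 8.83 and 8.34 in the RCA, and was lower by -1.25 (SE 0.16). Icosl, a T cell costimulatory ligand, was lower by -1.46 (SE 0.23, adjusted p = 0.000224), and Podxl, a sialomucin of the luminal surface, by -0.63 (SE 0.16, adjusted p = 0.0324). Abcb1b, a multidrug efflux pump, lay at 9.54, 8.07, 9.27, 8.90 and 8.65 in the LCA, against 7.77, 7.09, 7.14, 7.71 and 7.58 in the RCA. It was higher by 1.43 (SE 0.21) with no overlap. Phactr1, a phosphatase and actin regulator, was higher by 1.54 (SE 0.38, adjusted p = 0.0245).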
